A study of Homo sapiens with 4 samples.

Results

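Fibronectin, the product of FN1, is carried in these data by 59 of the 121269 deposited alternative splicing events. All events whose gene symbol is FN1 were taken from the 5 event tables and sorted by the alternative piece they cover, namely the EDB exon, the EDA exon, the variable region and the remaining exons. RNA-seq had been done on U87MG, an established human glioblastoma cell line, with 4 libraries in all. In 2 libraries the cells were transfected with RBFOXi, a decoy oligonucleotide built from repeats of the RBFOX binding motif, and in 2 with the scrambled control SCRM, each at 2.5 µM by lipofection. According to the sample labels, the decoy used for RBFOXi replicate 1 bore a Cy5 fluorophore, and the labels mention none elsewhere. All cells came from the same line, and no untransfected cells were analysed here. The 2 libraries of a condition are described as independent biological replicates.

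Fibronectin is a large secreted glycoprotein that cells assemble into fibrils and grip through integrins. It is built from repeated modules of types I, II and III. EDB and EDA are type III modules, each encoded by a whole exon that can be included or left out. The variable region, also called IIICS, joins late type III modules and carries sites for α4 integrins. Plasma fibronectin made by the liver lacks both extra domains, whereas embryonic, wound and tumour matrix can hold them, and EDB in particular is used as a marker of tumour vessels and stroma. RBFOX proteins bind UGCAUG in RNA, and copies downstream of an exon are known to favour its inclusion. The repeats of this hexamer in the intron after EDB are a classic case of such an element.

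FN1 (ENSG00000115414.21_16) lies on the minus strand of chr2:216225163-216300796 in hg19. Exons are numbered here along the 46 exons of the canonical transcript, and coding use was read from the 10 full-length coding transcripts of GENCODE 44 lifted to this build. EDB is exon 25 at chr2:216257654-216257926, 273 nt or 91 codons, and is coding sequence in 3 of the 10 transcripts. EDA is exon 33 at chr2:216245534-216245803, 270 nt or 90 codons, and is coding sequence in 5 of the 10. The variable region lies in exon 40 at chr2:216236632-216237098, an exon of 467 nt in its full form, which 3 of the 10 transcripts use. The part that varies is its first 360 nt, and its last 107 nt are kept with each of the 3 acceptors described below. Each of EDB and EDA holds a whole number of codons.

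The intron after EDB, intron 25, holds 6 copies of TGCATG within its 1116 nt, which reads as UGCAUG in the RNA. The copies start 42, 603, 636, 740, 998 and 1025 nt into the intron. Stretches around them are shown because they are the motif that the decoy copies, with the hexamer in capitals, on the gene's strand, 5′ to 3′, from hg19 chr2:216257554-216257653, chr2:216256899-216257061 and chr2:216256614-216256666.
EDB downstream, copy 1: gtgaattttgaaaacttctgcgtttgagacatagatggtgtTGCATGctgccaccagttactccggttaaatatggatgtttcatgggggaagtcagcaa
EDB downstream, copies 2 to 4: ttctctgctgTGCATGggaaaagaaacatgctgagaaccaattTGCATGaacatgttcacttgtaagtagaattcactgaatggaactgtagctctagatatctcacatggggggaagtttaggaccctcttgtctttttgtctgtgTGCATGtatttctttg
EDB downstream, copies 5 and 6: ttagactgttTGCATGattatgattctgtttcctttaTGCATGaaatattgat

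Only the first copy lies within the 300 nt next to the exon. A copy in that window was present at 8.36% of the 30617 distinct exons tested, so its presence near EDB was shared with many exons. Counted over the whole downstream intron, 49.9% of these exons had a copy and 8.13% had at least 6 with introns of all lengths pooled. Among the 1359 exons whose downstream intron was within 10% of the length of intron 25, the median was 0 copies and 2 exons (0.147%), EDB being 1 of them, had at least 6. The other strand of the motif, CATGCA, occurred 2 times in intron 25 and can overlap TGCATG by up to 4 letters, and the shorter GCATG occurred 7 times. The intron before EDB, intron 24, had 0 copies of TGCATG in 1324 nt. Over the 45 FN1 introns there were 18 copies in 66814 nt, in 10 introns, and no intron other than intron 25 had more than 2. These are letter matches, and binding was not measured here.

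EDA differed from EDB in this respect. The intron after EDA, intron 33, had 0 copies in 1493 nt, and the intron before it, intron 32, had 1 copy that ended 65 nt before the exon. A copy within the last 300 nt before the exon was found at 8.16% of the exons tested. The 100 nt on each side of EDA are shown to allow comparison with EDB, from hg19 chr2:216245804-216245903 and chr2:216245434-216245533, with any TGCATG in capitals.
EDA upstream: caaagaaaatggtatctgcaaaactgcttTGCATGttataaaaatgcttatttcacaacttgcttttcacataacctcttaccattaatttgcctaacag
EDA downstream: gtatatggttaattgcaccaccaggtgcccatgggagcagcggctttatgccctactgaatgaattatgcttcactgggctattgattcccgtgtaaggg

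**Figure D1:**
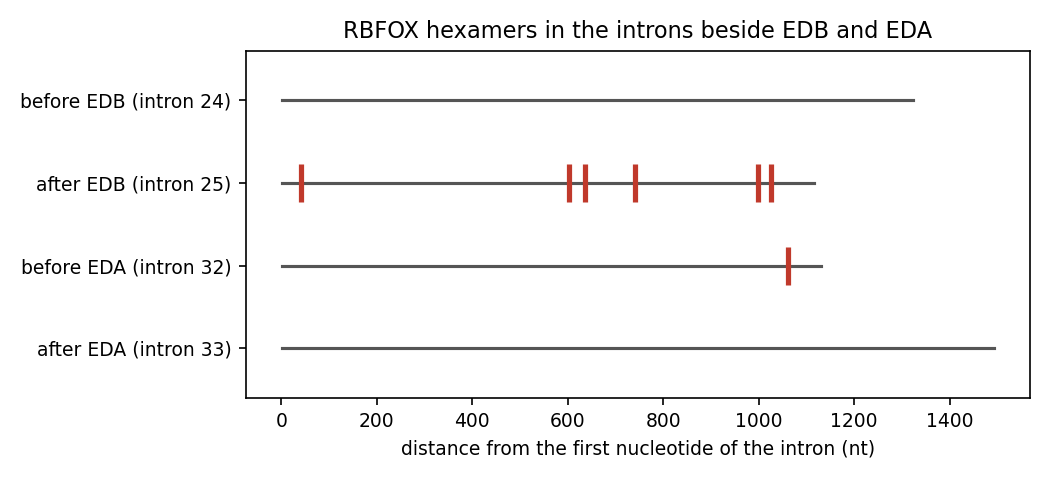
Positions of TGCATG (red bars) in the 4 introns beside EDB and EDA, on the strand of the gene, with each intron drawn to scale from its first nucleotide (x axis, nt). Intron 25 carries 6 copies and intron 32 carries 1, while introns 24 and 33 carry 0.

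For every event, the number of reads that fit the form with the alternative piece (inclusion counts) and the form without it (skipping counts) was deposited for each library. The proportion spliced in (PSI) was computed from these counts after dividing each by the effective length of its form, so that 0 means that the piece was always left out and 1 that it was always kept. Summed over skipped exon events, the libraries held between 114415530 and 136097319 counts, and a read can be counted in more than 1 event. Of the FN1 events, 43 passed the count filter and entered the limma fit of log2 odds of inclusion. An event was called when the adjusted p was under 0.05 and PSI differed by at least 0.1. VIM, NES and CD44, which glioma cells express, had skipped exon events with counts in every library. The same lookup gave 0 skipped exon events for the glial and stem cell markers GFAP, SOX2 and S100B. RBFOX2 had 11 events, with 351 to 2392 counts per library at the best covered, and RBFOX1 and RBFOX3 had 0. Event counts are not expression levels, so these zeros do not show that a gene was silent.

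Inclusion of EDB fell with RBFOXi, and this was the only called event among the 59 of FN1. The inclusion counts were 9153 and 10267 in RBFOXi replicates 1 and 2 and 6266 and 35098 in SCRM replicates 1 and 2. The skipping counts were 31149 and 26652 with RBFOXi and 5005 and 21362 with SCRM. Skipping reads thus outnumbered inclusion reads in both RBFOXi libraries, and the reverse held in both SCRM libraries, although the form with EDB offers reads an effective length of 345 nt against 86 nt for the form without it. With these lengths taken into account, PSI was 0.0682 and 0.0876 in the RBFOXi libraries. It was 0.238 and 0.291 in the SCRM libraries. The groups did not overlap, and by PSI the form without EDB was the more frequent in the SCRM libraries as well. The coverage ratio given below was higher, at 0.393 and 0.525 in SCRM replicates 1 and 2, so this share depends on the measure.

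RBFOXi libraries had a mean EDB PSI of 0.0779 ± 0.0137 (SD, n = 2), against 0.264 ± 0.0373 (SD, n = 2) in SCRM libraries, a difference of -0.186. The log2 odds of inclusion were -1.77 and -1.38 against 0.32 and 0.72, a change of -2.09 with a standard error of 0.19 and an adjusted p of 0.000466 (limma, over 39615 skipped exon events). The 4 differences between a RBFOXi and a SCRM library ranged from -0.222 to -0.150. Within a condition the replicates differed by 0.0194 and 0.0527, so each difference between conditions exceeded both. Called were 0.0682% of all tested skipped exon events, or 27 events, and 0.0530% were called and lower with RBFOXi. Among these 27, EDB ranked 3 by adjusted p. By the size of the fall in PSI, EDB ranked only 20 among the 21 called events that were lower with RBFOXi. Its coverage was high, as only 0.558% of tested events had more counts on average.

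The size of the EDB change held with each library left out, with PSI differences from -0.213 to -0.160, but the call did not. Without SCRM replicate 1 the adjusted p (limma) was 0.286, and without SCRM replicate 2 it was 0.303. It was 0.216 with a pseudocount of 0.1 in place of 0.5, at the same log2 odds change of -2.09. Taken as a plain share of counts, without the effective lengths, the PSI difference of EDB was -0.336.

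**Figure D2:**
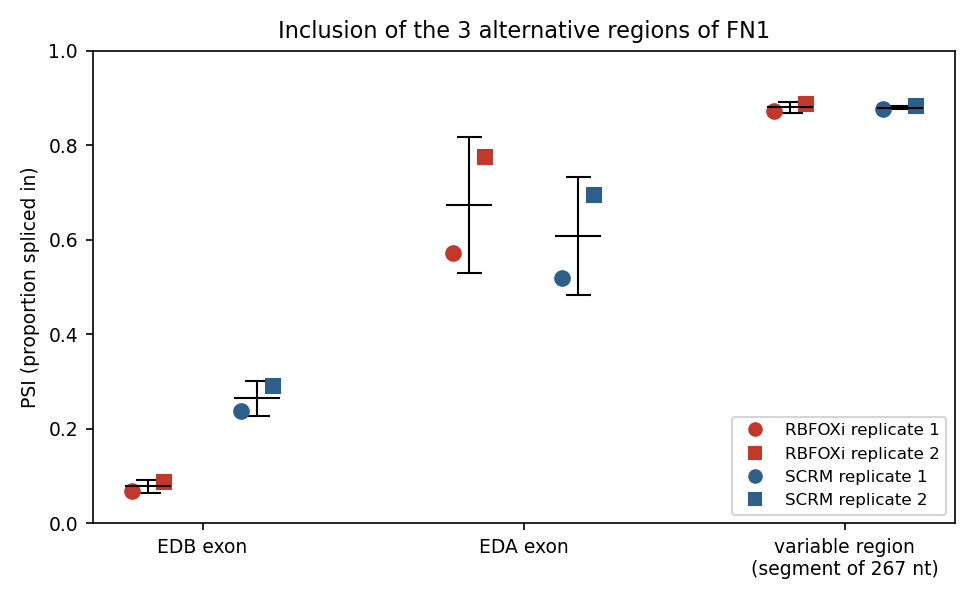
PSI (y axis, 0 to 1) of the reference event of EDB, EDA and the variable region in each library, with the mean and SD of the 2 libraries of a condition in black. The RBFOXi libraries lie below both SCRM libraries at EDB (0.0682 and 0.0876 against 0.238 and 0.291), interleave with them at EDA and nearly coincide with them in the variable region.

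A measure that leaves out the skipping junction gave the same order of libraries. The inclusion coverage of EDB per nt was set against the mean of exons 23 and 27, the nearest exons whose counted junctions do not touch EDB. The ratio was 0.136 and 0.183 with RBFOXi and 0.393 and 0.525 with SCRM, or 0.160 ± 0.0329 against 0.459 ± 0.0933 (SD, n = 2). Again the groups did not overlap. This ratio shares the inclusion reads with PSI and is no independent measurement.

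The event of mutually exclusive exons beside EDB moved the other way. It sets exon 26 against exon 27, with exons 24 and 28 as flanks, so its counts include the junction from exon 24 to exon 26 that forms when EDB is left out. PSI was 0.636 and 0.645 with RBFOXi and 0.540 and 0.592 with SCRM, without overlap. The difference of 0.0745 had an adjusted p (limma) of 1.000, and the event was not called. It was called only when SCRM replicate 2 was left out, at a difference of 0.10 and an adjusted p of 0.00108.

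For EDA, no change was called, and the replicates of a condition differed more than the conditions. PSI of the event between exons 32 and 34 was 0.572 and 0.775 in the RBFOXi libraries. It was 0.519 and 0.695 in the SCRM libraries. Both second replicates were above both first replicates, and the groups overlapped. The means were 0.673 ± 0.144 and 0.607 ± 0.125 (SD, n = 2), a difference of 0.0661, which is smaller than the gaps of 0.203 and 0.177 between replicates.

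The log2 odds of EDA inclusion changed by 0.45 with a standard error of 0.37 and an adjusted p of 1.000 (limma). Differences between single libraries ran from -0.124 to 0.256, and included both signs. Without RBFOXi replicate 1 the difference was 0.168 and was called, with an adjusted p (limma) of 0.00381, and without RBFOXi replicate 2 or SCRM replicate 1 it turned negative, at -0.0354 and -0.0221. As a plain share of counts, the EDA difference was 0.0309. The inclusion coverage of EDA relative to exons 31 and 36 was 0.382 and 0.553 with RBFOXi and 0.335 and 0.479 with SCRM, in the same order as PSI.

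In contrast with EDB, EDA had a PSI of more than 0.5 in every library. Its coverage relative to exons 31 and 36 was below 0.5 in every library but RBFOXi replicate 2 (0.553), so the share of transcripts with EDA depends on the measure. The log2 odds of EDB minus those of EDA were -4.17 and -5.15 with RBFOXi and -1.78 and -2.47 with SCRM. The gap between the exons was therefore wider in both RBFOXi libraries, by -2.54 on average. A two-sided exact permutation test over the libraries gave p = 0.333, the smallest value that 2 against 2 libraries allow.

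The other events that touch EDA were all uncalled. Of its 3 skipped exon events, the 2 with a more distant upstream exon had PSI above 0.99 in every library, and 1 of them passed the count filter. The mutually exclusive choice of exon 32 over EDA had PSI of 0.636 and 0.504 with RBFOXi and 0.643 and 0.559 with SCRM, here with the second replicates below the first. A retained intron event from exon 32 to exon 34 spans the EDA exon, and its PSI was 0.0876, 0.178, 0.0632 and 0.134 in RBFOXi replicates 1 and 2 and SCRM replicates 1 and 2. Reads from EDA count as retained there, and the libraries stood in the same order as for the exon itself. An alternative 3′ splice site event over the same stretch had PSI from 0.9947 to 0.9981.

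The variable region was spliced alike in all libraries. Exon 40 has 3 acceptors, shown because the choice between them is part of what sets how much of the region enters the protein. The last intronic bases are in lower case and the first 3 bases that are kept are in capitals. They lie at hg19 chr2:216237096-216237118, chr2:216237021-216237043 and chr2:216236736-216236758, on the minus strand.
Variable region acceptor 1: ctctaacctctctcggctagACG
Variable region acceptor 2: cttggatgttccttccacagTTC
Variable region acceptor 3: caatccaaatgcctctacagGAC

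Acceptor 1 starts exon 40 at its first base, acceptor 2 drops the first 75 nt and acceptor 3 drops the first 360 nt. With acceptor 1 or 2, a segment of 93 nt just before acceptor 3 can also be spliced out as an intron. All 467 nt are therefore kept only with acceptor 1 and with this segment retained. Among the events that cover this region alone, the one with the most counts covers the first 267 nt, between exon 39 and the end of exon 40. Its PSI was 0.872 and 0.887 with RBFOXi and 0.877 and 0.882 with SCRM. The means were 0.880 ± 0.0109 and 0.879 ± 0.00325 (SD, n = 2), and the groups overlapped. The difference of 0.000500 had an adjusted p of 1.000, and the log2 odds changed by 0.01 with a standard error of 0.19 (limma).

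Against acceptor 3, the first 360 nt were counted as kept at PSI of 0.816 and 0.836 with RBFOXi and 0.823 and 0.828 with SCRM. Reads inside these 360 nt can also come from transcripts that use acceptor 2, so this event does not set acceptor 1 alone against acceptor 3. Against acceptor 2, the first 75 nt were kept at 0.903 and 0.910 with RBFOXi and at 0.917 and 0.913 with SCRM. These last groups did not overlap, but the difference was -0.00857 with an adjusted p (limma) of 0.999. The 192 nt segment had PSI between 0.816 and 0.834. The 93 nt segment read as a retained intron had PSI between 0.156 and 0.167, so its removal was the more frequent form in every library. Skipping of all of exon 40 was counted only over junctions from exon 39 to exon 42 or 43, which leave out exon 41 too. Such junctions were rare, with PSI from 0.9927 to 0.9982 for the 467 nt form. For the 107 nt form, PSI was 0.971 to 1.0000 in its 2 events. Skipping of exon 40 alone was not measured. A last event of the 192 nt segment, with exon 24 as its upstream exon, had PSI of at least 0.9999 and was not tested. Neither of the 2 mutually exclusive events that pair exon 40 with exon 42 was called, with PSI of 0.265 to 0.337 and 0.0829 to 0.113. The former had more counts than any event of exon 40 alone, a mean of 120787 per library, and its PSI differed by 0.0229 with an adjusted p (limma) of 1.000.

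Outside these regions FN1 exons were almost always included. The other 27 skipped exon events cover 21 exons, and the lowest PSI in any library was 0.997. Of these, 14 passed the filter, 2 had an unadjusted p under 0.05 and 0 were called by limma, by the quasi-binomial F test or by Fisher's exact test. Over all 39615 skipped exon events these tests called 27, 45 and 317, a small share in each case. Fisher's exact test sums the reads of a condition and ignores the spread between its libraries. Exon 41 had the smallest adjusted p, 0.425, with 17 and 16 skipping counts with RBFOXi and 1 and 2 with SCRM beside a mean of 62360.8 counts. Its PSI differed by only -0.000567. FN1 also has a constitutive exon of 273 nt, exon 19, and one of 270 nt, exon 28. Both stayed above a PSI of 0.99 in all 4 libraries, so a length shared with EDB or EDA went with different splicing.

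**Figure D3:**
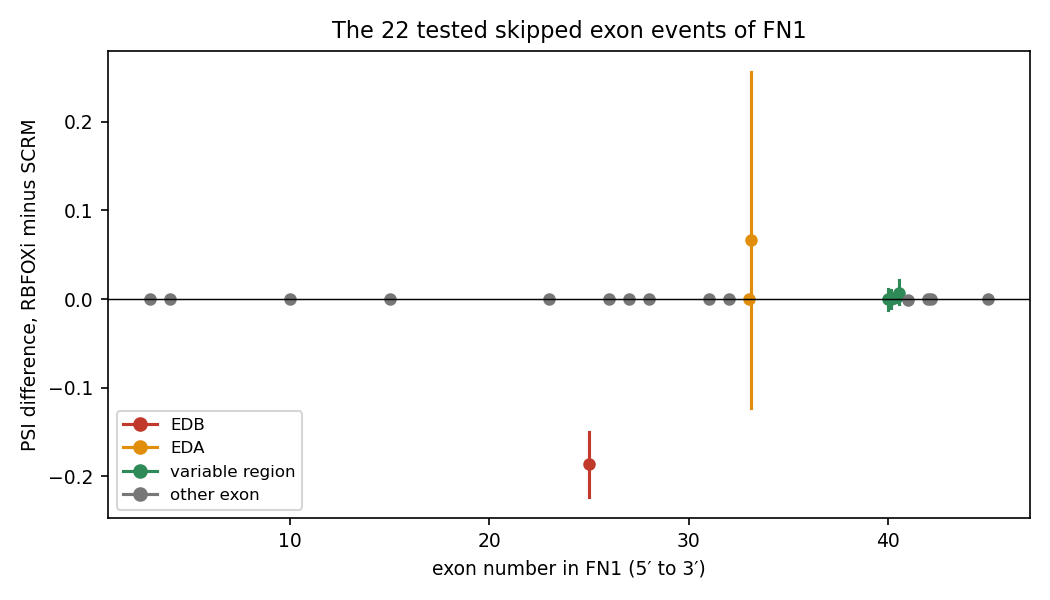
Difference in PSI (y axis, RBFOXi minus SCRM) of the 22 tested skipped exon events of FN1 by exon number from 5′ to 3′ (x axis), with points for the difference of means and lines for the range of the 4 differences between single libraries. EDB (-0.186) is the only event whose line stays clear of 0 by more than 0.1, the line of EDA crosses 0, and the other exons lie on 0.

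Over all FN1 skipped exon events tested, 1 of 22 was called, beside 0.0682% of all such events, and 6 of 22 had groups that did not overlap, beside 30.8% of all. For the other event types of FN1, 0 of 21 tested events were called by limma, by the quasi-binomial F test or by Fisher's exact test, and 1 had an unadjusted p under 0.05. The share called over all genes was 0% for mutually exclusive exons, 0% for alternative 3′ splice sites and 0% for retained introns, with 395, 100 and 18 events at an unadjusted p under 0.05. The quasi-binomial F test called 4, 2 and 0 of these, and Fisher's exact test 199, 20 and 30. Groups did not overlap at 2 of 15 mutually exclusive events of FN1, beside 24.4% of all. The 12 mutually exclusive events not described above, which mostly pair neighbouring exons that are both included, were not called. The same held for a retained intron event of intron 29, with PSI from 0.000361 to 0.000965. Some of the 12 have EDA or exon 40 as a flank. The event of exons 31 and 32 between exons 30 and 34 counts the junction that skips EDA. Its PSI was 0.744 and 0.803 with RBFOXi and 0.679 and 0.788 with SCRM. FN1 has 0 alternative 5′ splice site events in the tables used here. Of the 59 events, 16 did not pass the filter on counts and were not tested.

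SCRM replicate 1 differed from the other libraries in how FN1 was covered from end to end. Per nt and scaled to the library total, its inclusion coverage of exon 2 was 0.0631, against 0.582 to 0.880 in the other 3 libraries. At exon 45 it was 2.59, against 1.40 to 2.17. The log2 ratio of the 5′ to the 3′ part of FN1, each library relative to the others, was -2.69 in SCRM replicate 1, 1.07 in SCRM replicate 2, and 0.12 and 0.29 in the RBFOXi libraries. Its median over 873 genes was -0.96, 0.44, 0.09 and 0.08 in the same order. The SCRM libraries thus stood apart in opposite directions, with the RBFOXi libraries between them. Near EDB this library had fewer counts, 11271 against 36919 to 56460. Without SCRM replicate 1, the PSI of EDB differed by -0.213 and the call was lost. Without SCRM replicate 2, the difference was -0.160 and the call was lost too.

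**Figure D4:**
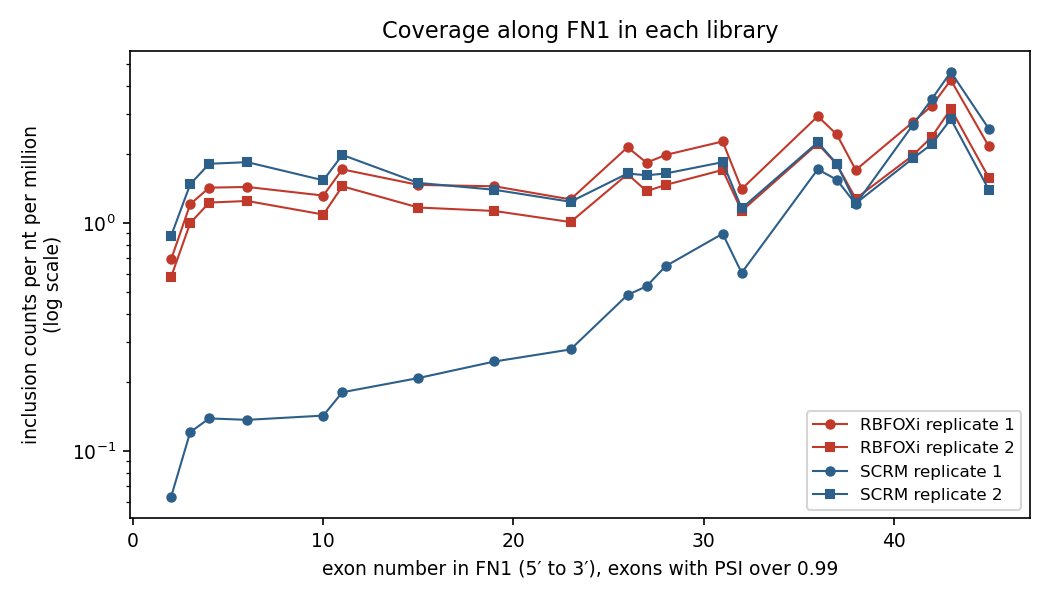
Inclusion counts per nt, scaled to the skipped exon counts of each library (y axis, log scale), at the 21 FN1 exons with PSI over 0.99, by exon number from 5′ to 3′ (x axis). SCRM replicate 1 rises from 0.0631 at exon 2 to 4.60 at exon 43, while the other 3 libraries start between 0.582 and 0.880.

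The 3 other genes whose event had PSI values nearest to those of EDB over the 4 libraries were NF2, NFASC and MICAL3, with Euclidean distances of 0.0424, 0.0581 and 0.0709. NF2, which encodes the tumour suppressor merlin, had PSI of 0.0596 and 0.110 against 0.265 and 0.268 at a 60 nt exon (chr22:30079009-30079068). NFASC, which encodes the adhesion molecule neurofascin, had 0.0679 and 0.103 against 0.183 and 0.30 at a 153 nt exon (chr1:204971724-204971876). MICAL3, which encodes an actin-oxidising enzyme of the MICAL family, had 0.115 and 0.111 against 0.264 and 0.331 at a 138 nt exon (chr22:18310410-18310547). None of the 3 was called. Their order of libraries follows from choosing them for likeness to EDB and is given as a description. These events had between 15 and 587 counts in a library, far fewer than EDB.

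Among 49 genes of fibronectin receptors, matrix partners and adhesion linkers, 39 had tested skipped exon events, 353 in all. Of these, 1 was called, beside 0.0682% of all tested events, and 34 had an unadjusted p under 0.05, beside 1430 of 39615. The median PSI difference was -1.11e-05 over the list and -5.65e-05 over all tested events. By role, 0 of 53 events of receptors (integrins and syndecans), 0 of 186 of matrix partners and 1 of 114 of linkers were called by limma, with 7, 15 and 12 at an unadjusted p under 0.05.

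The called event was an 81 nt exon of ACTN1 (chr14:69345706-69345786), the gene of an α-actinin that cross-links actin at adhesions. Its inclusion rose, with PSI of 0.966 and 0.971 with RBFOXi and 0.838 and 0.895 with SCRM, without overlap. The difference was 0.102 with an adjusted p (limma) of 0.0347. The call was lost without RBFOXi replicate 2, without either SCRM library and with a pseudocount of 0.1.

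Other partner events missed a criterion. A 273 nt exon of TNC (chr9:117826075-117826347), which encodes the matrix protein tenascin C, had PSI of 0.983 and 0.978 against 1.00 and 0.998, with an adjusted p (limma) of 0.00727 but a difference of only -0.0183. Another TNC event differed by -0.116 and was called by Fisher's exact test and with the replicate block, but not in the main fit. A 24 nt exon of FLNA (chrX:153585619-153585642), the gene of the actin cross-linker filamin A, had 0.621 and 0.633 against 0.775 and 0.833, with an adjusted p of 0.0576 (limma). At a PSI difference of -0.177, FLNA was called with a pseudocount of 1 (adjusted p = 0.0168, limma) and by the quasi-binomial F test (adjusted p = 0.00973), and also without RBFOXi replicate 1 or 2, at -0.171 and -0.183. A 603 nt exon of COL6A3 (chr2:238296225-238296827), a chain of type VI collagen, had 0.455 and 0.597 against 0.301 and 0.388, with an adjusted p of 0.631 (limma). Its counts ranged from 792 to 20522 in a library. Another COL6A3 event went the other way without RBFOXi replicate 1, at a difference of -0.157. At the 3 exons located here the groups did not overlap, as was so at 32.6% of partner events and 30.8% of all tested skipped exon events. These exons were picked for their small p-values, so the lack of overlap is given only as a description.

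**Figure D5:**
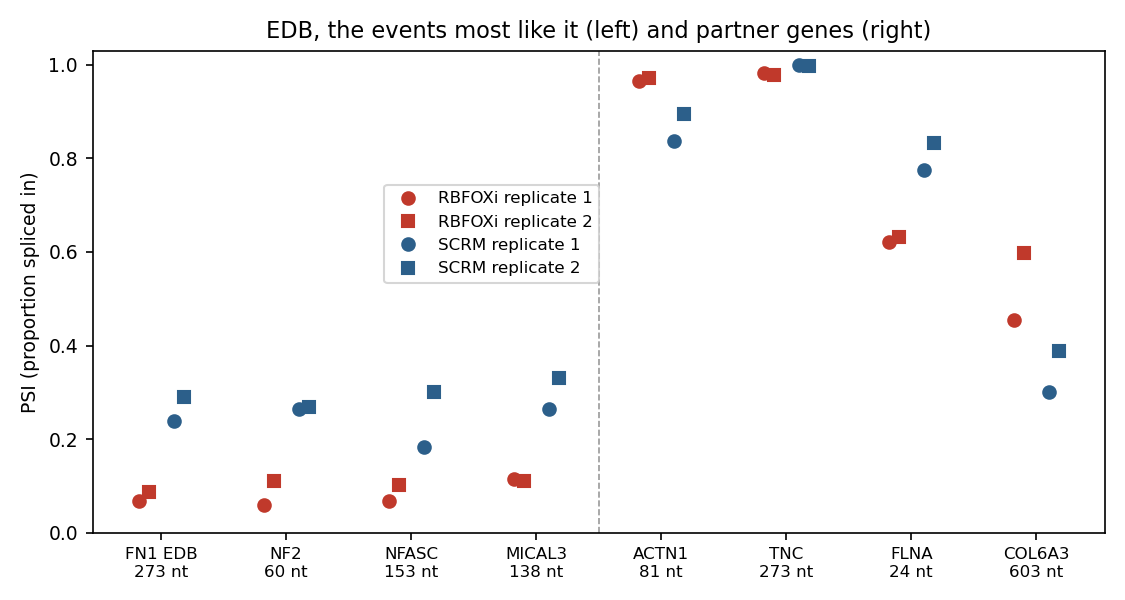
PSI (y axis, 0 to 1) in each library of EDB and the 3 genes most like it, left of the dashed line, and of the 4 named partner events, right of it. ACTN1 and COL6A3 lie higher with RBFOXi and TNC and FLNA lower, and of the events shown those of EDB and ACTN1 were called.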

How the data were processed

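Paired-end reads were mapped by the authors with STAR 2.4.2a, unique hits on hg19 only, and rMATS 3.0.9 assigned them to events of the UCSC known genes. The deposited tables give raw inclusion and skipping counts per library, not normalized, beside an effective length per form. The authors' p-values, FDR and inclusion levels were not used. Here, the log2 odds of inclusion (pseudocount 0.5) were fitted by limma 3.58.1 in R 4.3.3 with a variance trend and condition as the only term, Benjamini-Hochberg adjusted within event type. The filter asked for 5 counts in each library, 20 on average, and 4 for either form. The fit was tested on simulated data. SD and the p-values of limma and the quasi-binomial F test measure the spread between libraries, since counts are not independent molecules. Fisher's exact test was run on counts summed over the libraries of a condition. It treats reads as independent and ignores that spread. FN1 has a pair of 270 nt exons, and EDA was taken as the one that some full-length coding transcripts lack. The motif was searched in the GRCh37 genome. Per-library values were given for the event with the most counts in each region (events that pair a region with another exon set aside), for called events, for the 3 genes nearest to EDB in PSI, and for partner genes that were called or had the 3 smallest p-values. Members, partner list and tests were chosen with earlier results of these data known. Alternatives covered the test, pseudocount, filter, replicate number, PSI definition and each library left out. Scripts ran under Python 3.11.15 with pandas 2.3.3, numpy 2.4.6, matplotlib 3.10.9 and scipy 1.17.1.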

Additional observations from a re-analysis of the deposited data

How the results depend on the processing

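The call of EDB was kept in 9 of the 12 alternatives. A change of test, pseudocount, filter or replicate block reused the PSI difference of -0.186, so its direction could not turn there. Nor could it with a library left out, since all RBFOXi libraries lay below the SCRM libraries (differences of -0.222 to -0.150). The call was lost with a pseudocount of 0.1 (PSI difference -0.186) and without either SCRM library, and leaving out libraries gave differences from -0.213 to -0.160. As a plain share of counts, PSI differed by -0.336 for EDB, 0.0309 for EDA and 0.000136 for the variable region. Leaving out a library assumes that the lone one varies like the other condition. For EDA, differences without 1 library ranged from -0.0354 to 0.168, and its event between exons 31 and 34 gave -0.000160. For the variable region, differences without 1 library ranged from -0.00720 to 0.00820, and the negative events were the 192 nt segment (-0.000247), the 75 nt segment (-0.00857) and the 93 nt segment (-0.00366). Called skipped exon events of FN1 numbered 0 with a pseudocount of 0.1 and 0 to 2 without 1 library, and those of the other types 0 to 1. Called partner events numbered 4 by Fisher's exact test, 2 by the quasi-binomial F test (chosen after seeing the data), 0 with a pseudocount of 0.1, 2 with a pseudocount of 1, 3 with 1 count in every library as the filter, 4 with the replicate block and 0 to 4 without 1 library. FLNA was among those called by both tests, with a pseudocount of 1, with the 1-count filter, with the block and without either RBFOXi library. The replicate numbers were not shown to pair the libraries: same-numbered libraries deviated together with r from 0.0836 to 0.118 in the 5 event types, over 2 pairs only. With the replicate block, the PSI differences stayed at -0.186, 0.0661 and 0.000500, and adjusted p (limma) was 1.75e-20 for EDB and 0.0364 for EDA, whose difference stayed under 0.1. The larger gap between EDB and EDA with RBFOXi kept its sign in all 7 alternatives, from -3.03 to -2.05 without 1 library. Its values in the RBFOXi and SCRM libraries did not overlap, so leaving out a library could not turn the sign. A planned test with edgeR was not run. The cause of these changes was not tested.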
